A study of Mus musculus with 10 samples.

Results

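*Csf1r*, *Lyz2*, *C1qa*, *C1qb*, *C1qc*, *Adgre1*, *Cd68*, *Mrc1*, *Cx3cr1* and *Lyve1* are 10 genes that mark the resident macrophages of tissues, and their levels were examined in wild-type and *Nos1ap* null mouse hearts at embryonic day 13.5. They were picked by name from the 23195 genes of the deposited comparison, in which all 10 names occur once. None of the 10 passed the thresholds of the study in null hearts, an FDR of 1% with an absolute log2 fold change over 1, and no 95% confidence interval reached a 2-fold change in either direction. Their summed normalized count was 1576 ± 106 in wild-type hearts and 1513 ± 104 in null hearts (SD, n = 5 each), a ratio of 0.960.

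Macrophages of the embryonic heart derive largely from progenitors of the yolk sac and the fetal liver, and they settle the tissue before birth. They survive through CSF1R, the receptor tyrosine kinase for the growth factors CSF1 and IL34. They clear dying cells, make the complement protein C1q and the lysozyme *Lyz2*, and take part in the growth of coronary and lymphatic vessels. Not every gene here belongs to macrophages alone: lymphatic endothelium makes LYVE1, the hyaluronan receptor, and sinusoidal and lymphatic endothelium can make MRC1, the mannose receptor.

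The hearts came from male embryos of the strain C57BL6/J, 5 of them wild type and 5 homozygous for a constitutive null allele of *Nos1ap* (tm1d), and the 2 groups shared no other engineered allele or treatment named in the labels. The tm1d allele lacks exon 4, which was removed with Cre driven by the CMV promoter, so that the gene was lost in macrophages and heart muscle alike, and the line was kept on C57BL/6J. PolyA RNA of whole hearts was sequenced with a stranded kit. The labels give no litter, so the p-values below measure the spread between these 10 embryos, and in whole hearts fewer macrophages and less RNA per macrophage cannot be told apart.

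The authors deposited group means of normalized counts, which are read counts divided by a size factor for library depth, and the whole counts of each library were recovered from these means. Libraries are numbered 1 to 5 within a genotype from the deepest to the shallowest, and these are not the replicate numbers of the labels. The libraries held an estimated 11328233 to 14023004 read pairs on genes. *Nos1ap* itself was counted 124 to 169 times in the wild-type libraries and 29 to 47 times in the null libraries, so every library matched its genotype (log2 fold change -1.83, adjusted P = 4.75e-09 by limma). Wild-type library 3 stood apart from the other 9 in *Elavl4*, which encodes a neuronal RNA-binding protein and was chosen after its values were seen. It held 233 read pairs of *Elavl4*, against 39 to 62 elsewhere. The fold changes and relations of the macrophage genes are therefore also given without this library.

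The comparison of the genotypes asked whether loss of *Nos1ap* changed the heart transcriptome. Across the 10223 protein-coding genes tested with limma, 0.0293% passed both thresholds of the study, and 0 of the 10 macrophage genes did (adjusted P = 0.999 for each). Shares of all genes refer to these 10223, which leave out genes with a mean of 1000 or more in a genotype. At an unadjusted limma p under 0.05, 3.61% of all genes and 0 of the 10 passed. The wild-type and null libraries were fully apart for 0.792% of all genes and for 0 of the 10. The fold change lay below 0, meaning a lower level in null hearts, for 8 of the 10 and for 52.1% of all genes, and this count ranged from 6 to 9 when single libraries were left out, with 6 without wild-type library 3. The median log2 fold change of the 10 was -0.05, beside -0.0045 for all genes tested. Without wild-type library 3 the fold changes were -0.10 for *Csf1r*, -0.020 for *Lyz2*, 0.13 for *C1qa*, -0.10 for *C1qb*, -0.24 for *C1qc*, -0.053 for *Adgre1*, -0.12 for *Cd68*, 0.15 for *Mrc1*, 0.0074 for *Cx3cr1* and 0.13 for *Lyve1*, and none of the 10 had an unadjusted limma p under 0.05. The ratio of the summed counts was then 0.981. Fold changes are on the scale of log2(normalized count + 1) and are given as null over wild type.

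**Figure D1:**
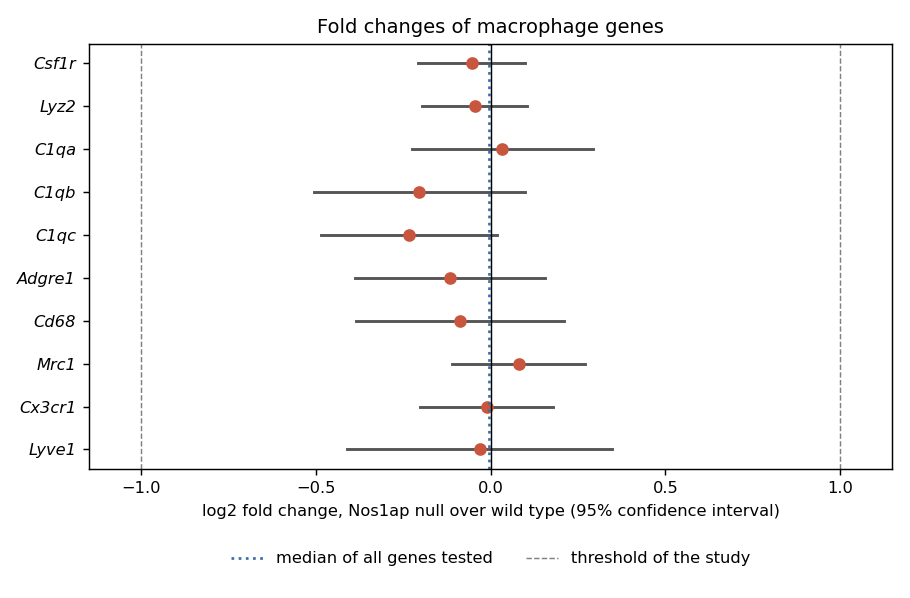
Log2 fold change of each macrophage gene (x axis, *Nos1ap* null over wild type; 5 libraries a genotype), with its 95% confidence interval from limma as a bar, 0 as a solid line, the median of all genes tested as a dotted line and the fold change threshold of the study as dashed lines. All 10 intervals include 0, and the lowest bound is -0.51, for *C1qb*.

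*Csf1r*, on chromosome 18, encodes the receptor on which macrophages depend. Its normalized counts in wild-type libraries 1 to 5 were 434, 388, 346, 405 and 378. In null libraries 1 to 5 they were 347, 441, 341, 397 and 356. The highest and the lowest of the 10 values both belonged to null hearts, and the groups overlapped along nearly their whole range. The means were 390 ± 32.6 and 376 ± 42.5 (SD, n = 5), the log2 fold change was -0.05 (SE 0.0735), and its interval allowed anything from a fall by 13.4% to a rise by 7.10%.

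Of the signals that macrophages receive, *Csf1* encodes the main ligand of CSF1R. It had a mean of 330 ± 18.7 in wild-type and 348 ± 18 in null hearts (log2 fold change 0.08, limma adjusted P = 0.999). *Il34*, the other ligand, was counted 0 to 4 times per library, and *Csf2*, which encodes the granulocyte-macrophage growth factor GM-CSF, 0 or 1 time. *Csf2ra*, a receptor chain for GM-CSF, had means of 272 and 286. *Gas6*, a bridging ligand for the receptors that bind dying cells, had deposited means of 1603 in wild-type and 1585 in null hearts, and its single libraries were not recovered. None of the 3 genes of this group that were tested passed.

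*Cx3cr1* encodes the receptor for fractalkine and is high in tissue-resident macrophages. Its wild-type libraries held normalized counts of 165, 124, 159, 164 and 145, and the null libraries 141, 160, 154, 159 and 134. The null values fell wholly within the wild-type range. Its log2 fold change of -0.01 was the smallest of the 10 in size, with an interval from -0.20 to 0.18. *Cx3cl1*, the membrane-bound ligand fractalkine, had means of 215 and 192 (log2 fold change -0.16, limma adjusted P = 0.999), and its 2 lowest libraries were wild-type library 3 and null library 2.

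*C1qa*, *C1qb* and *C1qc* encode the chains of C1q, which assemble into 1 molecule, the recognition subunit of the first complement component. The genes lie side by side on the minus strand of chromosome 4 (GENCODE M21 on GRCm38), with *C1qb* at chr4:136880129-136886187, *C1qc* at chr4:136889804-136893065 and *C1qa* at chr4:136895917-136898803. The 3 genes span 18675 bases together, with gaps of 3616 and 2851 bases. The promoters of *C1qb* (chr4:136886151-136886450) and *C1qc* (chr4:136892865-136893164) are read on the minus strand of GRCm38.p6, as given by RefSeq. They run from 250 bases before to 50 after the start site. They are printed because these chains had the largest fold changes of the 10 in size. Capitals mark GAGGAA, a core sequence that the macrophage factor PU.1 can bind, or its reverse complement.
C1qb: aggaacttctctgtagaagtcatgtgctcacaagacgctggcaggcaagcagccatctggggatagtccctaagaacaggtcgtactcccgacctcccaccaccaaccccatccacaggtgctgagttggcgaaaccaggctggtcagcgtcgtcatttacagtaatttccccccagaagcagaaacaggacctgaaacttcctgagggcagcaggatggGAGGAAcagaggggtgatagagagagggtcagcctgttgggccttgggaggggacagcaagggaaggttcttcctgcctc
C1qc: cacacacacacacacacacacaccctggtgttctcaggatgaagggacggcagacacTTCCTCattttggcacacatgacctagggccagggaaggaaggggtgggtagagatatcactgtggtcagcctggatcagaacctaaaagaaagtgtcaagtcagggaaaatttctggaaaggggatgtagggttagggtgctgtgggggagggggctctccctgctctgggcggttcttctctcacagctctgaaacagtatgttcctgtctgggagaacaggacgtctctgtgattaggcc

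GAGGAA starts 30 bases before the start site in the *C1qb* promoter, and its reverse complement starts 193 bases before it in the *C1qc* promoter. On either strand it was present in 4 of the 6 promoters of these genes that were searched (*C1qb*, *C1qc*, *Cd68* and *Mrc1*, but not *Lyz2* or *Cx3cr1*), and in 28.3% of 32851 promoters of the same length. No promoter was printed or searched for *Csf1r*, *C1qa*, *Adgre1* and *Lyve1*.

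*C1qc* had the largest fold change of the 10. Its normalized counts were 140, 113, 113, 124 and 91.0 in the wild-type libraries and 80.1, 121, 97.8, 102 and 92.6 in the null libraries. Of the null hearts, only library 2 exceeded the wild-type median of 113, and wild-type library 5 lay below 4 of the null hearts. The means were 116 ± 17.9 and 98.6 ± 14.8 (SD, n = 5), a log2 fold change of -0.23 (SE 0.121) with an interval from -0.48 to 0.02. The difference did not pass limma (p = 0.0664, adjusted P = 0.999) or the exact two-sided permutation test over 252 arrangements (p = 0.127), whose smallest possible p is 0.00794.

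*C1qb* ranked next. The wild-type libraries held 144, 105, 153, 98.0 and 86.9 normalized counts, and the null libraries 86.4, 119, 89.7, 107 and 96.9. Wild-type libraries 1 and 3 were the only ones of the 10 above 120, and the other 8 overlapped. The log2 fold change was -0.20 (SE 0.144, exact permutation p = 0.294), and it ran from -0.30 without wild-type library 5 to -0.10 without wild-type library 3. *C1qa* did not share the direction of its neighbours. It was at 86.1, 87.1, 113, 82.6 and 66.2 in wild-type and 94.5, 85.5, 90.7, 93.4 and 76.2 in null libraries, with the highest and the lowest value both in wild-type hearts. Its log2 fold change was 0.03, with an interval from -0.23 to 0.29.

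The balance of the chains was compared within each library, as each chain's share of the summed normalized counts per kilobase of exon of the 3 genes. *C1qa* made up 33.3 ± 2.64% in wild-type and 37.4 ± 4.09% in null hearts, *C1qb* 42.5 ± 3.25% and 40.2 ± 2.64%, and *C1qc* 24.2 ± 3.12% and 22.4 ± 1.85% (SD, n = 5). None of the 3 shares differed between genotypes beyond the spread of libraries (exact permutation p = 0.111, 0.270 and 0.310).

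C1q starts the classical pathway, and other genes of complement were measured beside it. Of 12 listed genes, 5 were tested and 0 passed either the thresholds or an unadjusted limma p of 0.05. Among them were *Serping1*, the inhibitor of C1r and C1s (272 and 262), *C3ar1*, a receptor for a C3 fragment made by macrophages (61.7 and 54.8), and *C3* itself (22.2 and 19.2). The proteases that C1q activates were scarce, with *C1ra* at 3.93 and 3.84 and *C1s1* at 1.61 and 1.98 normalized counts.

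*Lyz2* encodes lysozyme M, an enzyme that cleaves bacterial cell walls, and lies at chr10:117277331-117282321 on the minus strand. The wild-type libraries held 338, 272, 331, 283 and 322 normalized counts, and the null libraries 284, 332, 284, 315 and 280. All null values fell within the wild-type range. The means were 309 ± 29.6 and 299 ± 23.1 (log2 fold change -0.05, interval -0.20 to 0.10).

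*Lyz1*, the lysozyme of the intestine, is its near copy, 5475 bases away on the same strand. Their messages matched at 96.0% of aligned bases, and only 24 of 1217 stretches of 100 bases in *Lyz2*, the length of a read, occur unbroken in *Lyz1*. RSEM, the program used upstream, shares out reads that match both genes, so the split is an estimate. *Lyz1* had 41.2 ± 4.33 and 43.3 ± 5.88 normalized counts, with a log2 fold change of 0.07, and per kilobase of exon *Lyz2* was 6.90 times as high over the 10 libraries. The RefSeq promoters of *Lyz2* (chr10:117282223-117282522) and *Lyz1* (chr10:117292819-117293118), read on the minus strand, are set side by side to show where the copies part. Capitals mark bases that differ or have no partner in the alignment.
Lyz2: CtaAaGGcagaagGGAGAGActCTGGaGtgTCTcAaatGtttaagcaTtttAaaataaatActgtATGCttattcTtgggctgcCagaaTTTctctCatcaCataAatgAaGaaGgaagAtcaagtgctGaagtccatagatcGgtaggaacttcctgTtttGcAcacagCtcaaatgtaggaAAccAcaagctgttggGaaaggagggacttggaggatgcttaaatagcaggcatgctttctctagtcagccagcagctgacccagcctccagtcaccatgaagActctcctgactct
Lyz1: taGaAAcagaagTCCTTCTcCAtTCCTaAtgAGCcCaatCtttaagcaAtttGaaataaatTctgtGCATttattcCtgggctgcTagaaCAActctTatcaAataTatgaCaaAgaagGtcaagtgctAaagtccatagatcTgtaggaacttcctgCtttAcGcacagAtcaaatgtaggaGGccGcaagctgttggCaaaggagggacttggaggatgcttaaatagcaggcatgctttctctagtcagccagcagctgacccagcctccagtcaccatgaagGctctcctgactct

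They matched at 83.6% of aligned bases. In each, 51 of 300 bases are in capitals, and only 1 of these is among the last 100, which hold the start site. Neither promoter holds GAGGAA on either strand.

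**Figure D2:**
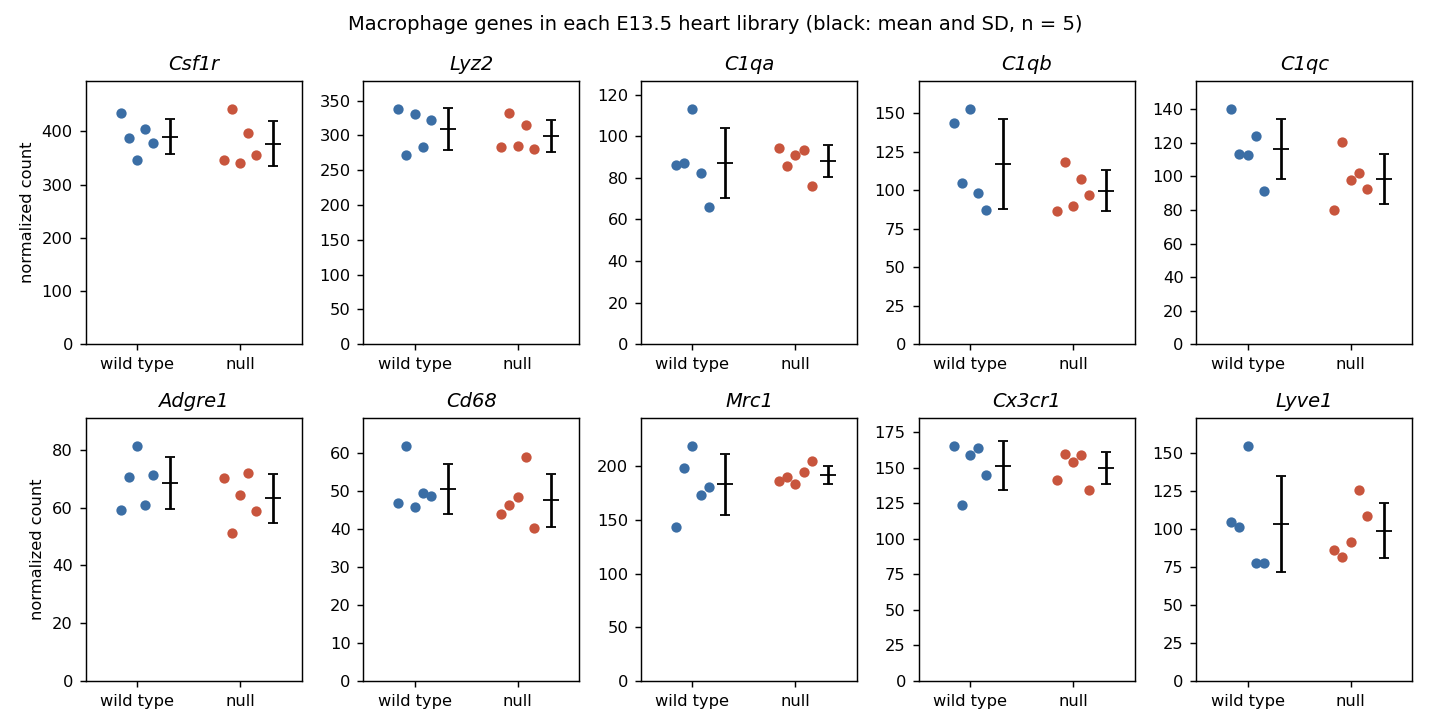
Normalized count (y axis, from 0) of each macrophage gene in the 5 wild-type (blue) and 5 *Nos1ap* null (red) libraries, ordered 1 to 5 from left to right, with the mean and SD in black. The groups overlap in every panel, and *Lyve1* ranges from 77.4 to 155 within wild-type hearts alone.

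*Adgre1* encodes F4/80, the adhesion receptor by which mouse macrophages are commonly stained. It ran from 59.2 to 81.4 normalized counts in wild-type and from 51.3 to 71.9 in null hearts, with a log2 fold change of -0.12 (interval -0.39 to 0.16). *Cd68*, a glycoprotein of lysosomes and endosomes, ran from 45.8 to 62.0 and from 40.3 to 59.1 (log2 fold change -0.09). Wild-type library 2 accounted for the top of its range, and the other 4 wild-type hearts lay between 45.8 and 49.5. It was counted 37 to 64 times a library, and its spread in wild-type hearts (12.9% of the mean) was below the 13.9% that counting alone would give.

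*Mrc1*, which takes up glycoproteins and marks macrophages along vessels, was the other gene with a higher mean in null hearts. The wild-type libraries held 144, 198, 219, 173 and 181 normalized counts, and the null libraries 186, 190, 183, 194 and 205. The null hearts lay close together inside the wild-type range, at a coefficient of variation of 4.34% against 15.4% in wild-type hearts. The log2 fold change was 0.08 (interval -0.11 to 0.27), and it became -0.0037 without wild-type library 1.

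*Lyve1* varied most between hearts. It was at 104, 102, 155, 77.4 and 77.6 in the wild-type libraries and at 86.4, 81.4, 91.7, 126 and 109 in the null libraries. Wild-type library 3 was highest and null library 4 next, so that neither genotype held the top alone. The log2 fold change was -0.03 (SE 0.177, interval -0.41 to 0.35), and 0.13 without wild-type library 3. LYVE1 is shared with lymphatic endothelium. Of 8 genes listed for that cell type, with the gene of its growth factor, *Vegfc*, among them, 7 were tested and 0 passed the thresholds. *Flt4*, the receptor for VEGF-C, had means of 637 and 639, *Pdpn*, a membrane glycoprotein, 270 and 280, and *Vegfc* 263 and 290. *Ccl21a*, a chemokine of lymphatic vessels that has near-identical copies, was the only one with an unadjusted limma p under 0.05 (p = 0.0312, adjusted P = 0.999; exact permutation p = 0.167). It was highest among wild-type hearts in library 3 and among null hearts in library 4, the same libraries as *Lyve1*, at 24.4 and 22.6 normalized counts, against 8.28 to 18.3 in the other wild-type and 0 to 5.40 in the other null hearts. *Flt4* did not stand out in these libraries. It was at 576 in wild-type library 3 and 667 in null library 4, inside the range of the other hearts of each genotype. The summed level of the 7 recovered genes of this list, *Vegfc* included, was 1255 to 1388 in wild-type and 1370 to 1453 in null hearts. Most of this sum came from *Flt4*, *Pdpn* and *Vegfc*, so it says little about the lower genes of the list. That sum was 1342 in wild-type library 3 and 1453 in null library 4. The part of lymphatic endothelium in the *Lyve1* level was not tested.

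The other positions in GENCODE M21 on GRCm38 are chr17:57358691-57483527 for *Adgre1*, chr11:69664213-69666153 for *Cd68*, chr2:14229392-14332057 for *Mrc1*, chr9:119901616-120069879 for *Cx3cr1* and chr7:110850607-110863239 for *Lyve1*. Apart from the *C1q* genes, no pair of the 10 shares a chromosome.

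The 10 genes were ranked by level per length, as the mean normalized count per kilobase of exon over the 10 libraries. *Lyz2* stood at 231 per kilobase, followed by *C1qb* at 99.7, *C1qa* at 84.2, *Csf1r* at 66.4 and *C1qc* at 55.6. *Cd68* was at 39.1, *Lyve1* at 34.6, *Cx3cr1* at 33.4, *Mrc1* at 29.4 and *Adgre1* at 20.4. The order was the same in both genotypes. *Lyz2* was the only gene whose lowest library exceeded the highest library of the next gene, and all other neighbours overlapped over the 10 libraries. *Lyz2* was 11.3 times as high as *Adgre1* on this scale. The order depends on the length used: with the longest transcript in place of all exons, 5 genes changed rank, and *C1qc* moved to rank 3.

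**Figure D3:**
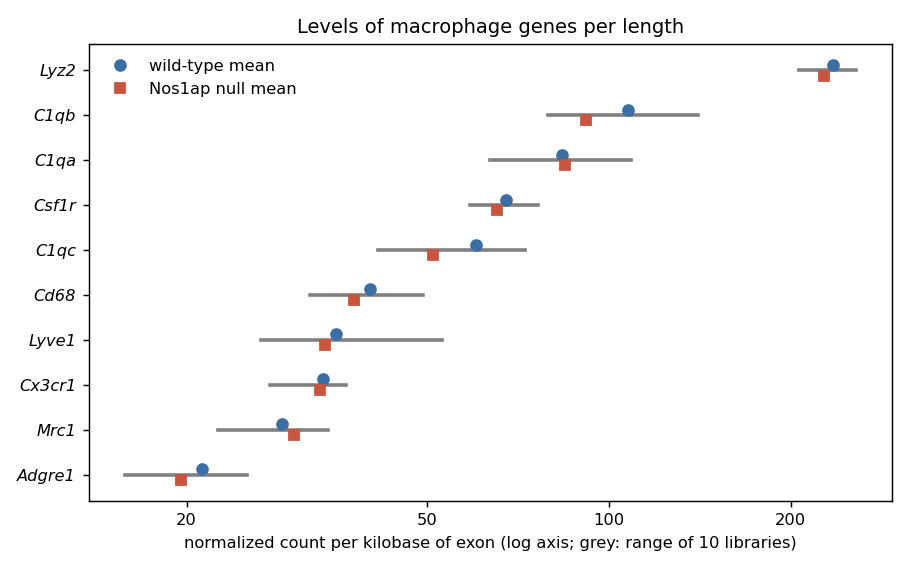
Normalized count per kilobase of exon (x axis, logarithmic) of each macrophage gene, with the wild-type mean (circle), the *Nos1ap* null mean (square) and the range of all 10 libraries (grey bar). *Lyz2*, at 231 over all libraries, is clear of the other genes, and the bars of all other neighbours overlap.

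Summed over the 10 genes, wild-type libraries 1 to 5 held 1661, 1522, 1715, 1517 and 1467 normalized counts and null libraries 1 to 5 held 1419, 1627, 1446, 1625 and 1449. As a share of all counted read pairs this was 0.0129% and 0.0123%. The highest sum was in wild-type library 3, which was the highest of all 10 libraries for 5 genes (*C1qa*, *C1qb*, *Adgre1*, *Mrc1* and *Lyve1*). Wild-type library 1 was highest for another 3, *Lyz2*, *C1qc* and *Cx3cr1*. The coefficient of variation was larger in wild-type than in null hearts for 7 of the 10, beside 52.7% of all genes tested. It exceeded the counting error for 9 of the 10 in wild-type hearts (68.1% of all genes) and for 7 of the 10 in null hearts (63.5%).

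The 10 genes did not all vary together between hearts. After each gene was centred on the mean of its genotype, 31 of the 45 pairs had a positive Pearson r over the 10 libraries, with a median of 0.23, and 30 pairs and a median of 0.18 without wild-type library 3. All libraries share 1 set of size factors. The pair most alike was *Csf1r* and *C1qc* (r = 0.74). Within the C1q genes, *C1qb* and *C1qc* had r = 0.68, *C1qa* and *C1qb* 0.63, and *C1qa* and *C1qc* 0.24. Pairs outside that cluster reached similar values, with 0.68 for *C1qa* and *Lyve1*, 0.67 for *C1qb* and *Lyve1*, and 0.66 for *Lyz2* and *C1qb*. The pair least alike was *Csf1r* and *Adgre1* (r = -0.72). Against the mean of the other 9 genes, *C1qb* had the highest relation (Pearson r = 0.78, permutation p = 0.00799, adjusted p = 0.0799 over 10 relations; Spearman rho = 0.82, permutation p = 0.00573, adjusted p = 0.0573), and r was 0.79 without the 2 libraries farthest from the median and 0.65 without wild-type library 3 (adjusted permutation p = 0.382). None of the 10 relations passed an adjusted p of 0.05. Without that library r went from 0.69 to 0.45 for *C1qa* and from 0.65 to 0.44 for *Lyve1*, but from 0.03 to 0.62 for *Csf1r*, from 0.35 to 0.56 for *C1qc* and from 0.10 to 0.45 for *Cd68*. It was 0.43 and 0.31 for *Lyz2* and 0.30 and 0.23 for *Cx3cr1*. *Adgre1* and *Mrc1* had r = 0.10 and 0.11, which turned to -0.29 and -0.41 without wild-type library 3, so that the sign of both rests on that library.

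**Figure D4:**
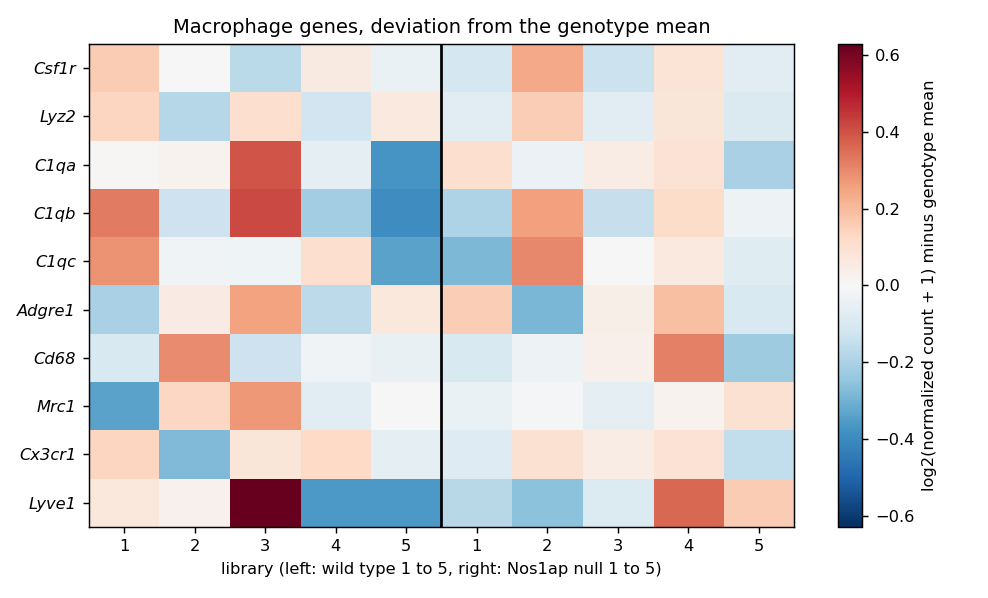
Deviation of log2(normalized count + 1) from the mean of the genotype (colour scale) for each macrophage gene (rows) in wild-type libraries 1 to 5 (left of the line) and *Nos1ap* null libraries 1 to 5 (right). The largest deviation is 0.63, for *Lyve1* in wild-type library 3, which is also high for *C1qa* (0.39) and *C1qb* (0.41), while wild-type library 5 is low for both (-0.37 and -0.39).

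In a search of 8302 other genes (mean normalized count 50 or more), the 5 whose deviations were most like the mean of the macrophage genes were *Pold4* (r = 0.93), *Wt1* (0.92), *Clmn* (0.91), *Parp6* (0.90) and *2410089E03Rik* (0.90), with r from 0.82 to 0.87 without wild-type library 3. These are a description over 10 libraries, and the 5 are not macrophage genes by name. *Pold4* encodes a subunit of DNA polymerase delta, and *Wt1* a transcription factor of the epicardium. For 11 further macrophage genes that could be compared, the median r was 0.43, beside 0.02 for all 8302, and 1 of them, *F13a1*, was among the first 100 (r = 0.82). Without wild-type library 3 these medians were 0.36 and -0.0018.

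A longer list of 40 genes of macrophages and myeloid cells was read beside the 10. Of its 27 tested genes 0 passed the thresholds, 16 lay below 0 and 11 above, and the median log2 fold change was -0.05, the same to 2 decimals as for the 10. Those named by their normalized counts, which are not divided by length, were *Sall1*, a transcription factor that also occurs in other tissues (506 and 521 normalized counts), and *Maf*, a macrophage transcription factor (468 and 469). *Ptprc*, the common leukocyte marker CD45, was counted 18 to 29 times in every library, with means of 24.2 and 25.8. *Spi1*, which encodes PU.1, had means of 28.3 and 26.0, and both were chosen after their values were seen.

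The smallest p-values of that list belonged to *Itgam* and *Hpgds*. *Itgam* encodes the integrin CD11b, which macrophages, monocytes and granulocytes share. It was counted 31, 25, 48, 23 and 21 times in the wild-type libraries and 23, 11, 10, 15 and 15 times in the null libraries, and after division by size factors no null heart reached the lowest wild-type heart. The log2 fold change was -0.90 (exact permutation p = 0.00794, the smallest possible), and it did not pass over all genes (limma adjusted P = 0.984). *Hpgds*, a prostaglandin D synthase of mast cells and some macrophages, had means of 41.3 and 28.0 (log2 fold change -0.57, limma p = 0.0199, adjusted P = 0.999, exact permutation p = 0.0635).

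Granulocyte and monocyte genes lay low in all libraries, and 0 of their 9 listed genes in the table reached the mean of 10 needed for the test. The permutation p-values given for them are not adjusted. All wild-type libraries lay apart from all null libraries for 0.792% of the genes tested, which all had a mean of 10 or more. That share was not computed for genes this low. *Mpo*, myeloperoxidase of neutrophil precursors, was counted 6 to 14 times in wild-type and 1 to 5 times in null libraries (exact permutation p = 0.00794). *Prtn3*, proteinase 3, was counted 6 to 10 and 1 to 7 times (exact permutation p = 0.0238). *S100a9*, a subunit of calprotectin, was counted 0 to 12 and 0 to 6 times (exact permutation p = 0.548). *Elane* and *Camp* were near the floor, at 0 to 2 and 0 to 3 read pairs in wild-type libraries (means 0.758 and 0.581). Both were at 0 in every null library (exact permutation p = 0.167 for *Elane*). For *Camp* the wild-type median was 0 as well. *Ctsg*, *S100a8*, *Ngp* and *Ltf* had read pairs in both genotypes (exact permutation p = 0.262, 0.563, 0.365 and 0.659). The summed level of the 9 was 19.7 to 65.2 in wild-type and 5.03 to 27.2 in null hearts. This sum was highest in wild-type library 1 (65.2), where *Itgam* was at 27.0 normalized counts. *Itgam* was highest in wild-type library 3 (48.9), where the sum was 26.5. The part of these cells in the *Itgam* level was not tested. Mast cell genes were led by *Kit*, which heart progenitors also use (320 and 337), and the proteases *Mcpt4* (4.71 and 5.45) and *Cpa3* (3.91 and 2.97) were scarce.

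**Figure D5:**
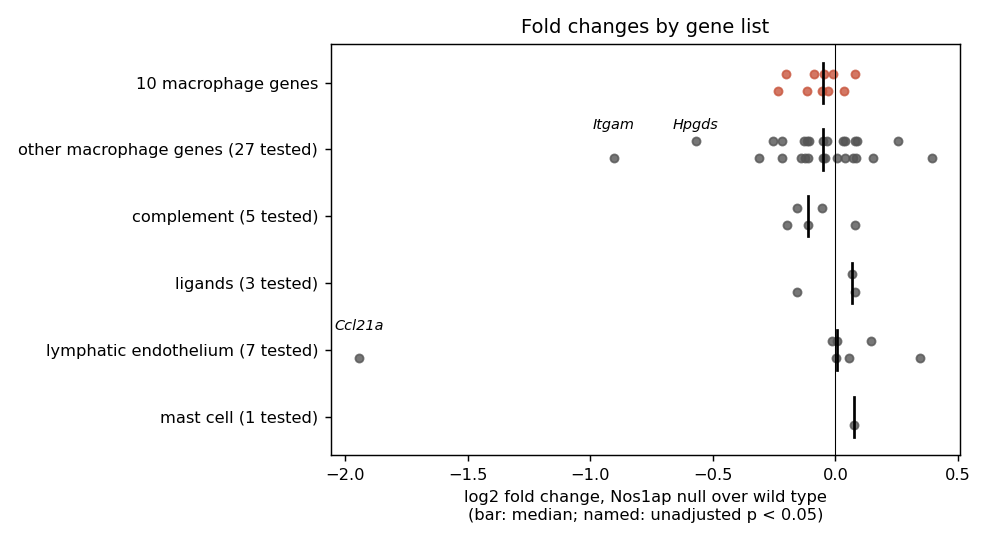
Log2 fold change (x axis, *Nos1ap* null over wild type) of every tested gene of the 10 macrophage genes (red) and of 5 further lists (grey), 1 point a gene, with the median of each list as a bar. The 10 genes lie between -0.23 and 0.08, and the genes named in the plot are those with an unadjusted limma p under 0.05, none of which is among the 10.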

How the data were processed

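The 10 polyA RNA-seq libraries of whole hearts were grouped by the genotype given in their labels, 5 a group. The authors trimmed the reads with Trimmomatic 0.36, aligned them with STAR to transcripts of GENCODE M10 (GRCm38) and estimated strand-aware gene counts with RSEM 1.2.31. The deposited signal values are, for each genotype, the mean over libraries of counts that the authors divided by DESeq 1.24.0 size factors. Their fold changes, log2 values and p-values stand in the same table and were not used.

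Size factors were read from genes with 2 counts in 1 genotype and 0 in the other, and whole counts that reproduce each mean under 1000 were then sought by lattice reduction. For means under 100, a gene was kept where only 1 set of counts exists. For higher means, and for lower ones with several sets, the set nearest to equal normalized counts was taken. It was kept where at most 0.01 other sets were expected by chance. This settled 98.5% of the wild-type and 98.9% of the null means under 1000, all 10 macrophage genes included. The search was tested on simulated data with 1 fixed spread between libraries beyond counting. That spread was narrower than the wild-type spread of *Lyve1* (30.6% of the mean) and *C1qb* (24.9%). Recovered libraries carry no replicate numbers.

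The limma package (version 3.58.1, R 4.3.3) was run over protein-coding genes with recovered counts whose mean was 10 or more. Genes with a mean of 1000 or more in a genotype were thus left out. The fit used log2(normalized count + 1), trended and robust moderation, and 95% confidence intervals. P-values were adjusted by Benjamini-Hochberg over 10223 genes. Single genes were compared by exact two-sided permutation over 252 arrangements, and correlations by 100000 permutations (scipy). The fit was tested on simulated data. Genes of the context lists were named as the 3 highest and the 2 with the smallest p of each list, all ligands were named, and exceptions are marked or are given with their list. A few genes it covers are left out of the text. Alternatives changed the pseudocount, the filter, the scaling, the genes tested, the moderation, the thresholds and the libraries. The 10 genes and the lists were chosen with earlier results of these data known. Counting errors cover counting only.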

Additional observations from a re-analysis of the deposited data

Results flagged for a closer look

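In each group of 5 libraries, the highest or lowest value was compared with the others by Dixon's ratio, and 11 of 86 groups (43 genes) held a value that stood apart. Chance gives about 1 in 20 groups, but *Elavl4*, *Clmn* and *Parp6* were chosen by their values and give 4 of the 11, so the count cannot be set against chance. Of the 10 macrophage genes only *Cd68* was among them, at 62.0 normalized counts in wild-type library 2, against 45.8 to 49.5 in the other wild-type hearts. Wild-type library 3 held 4 of the values that stood apart, namely *Itgam* at 48.9 (others from 21.7), *Clmn* at 149 (85.7 to 96.6), *Parp6* at 235 (164 to 184) and *Elavl4* at 237 (40.3 to 60.0). In null hearts, *Elavl4* was at 62.1 in library 5 (others 44.1 to 47.4), *Sall1* at 586 in library 3 (499 to 517), *Ccl21a* at 22.6 in library 4 (0 to 5.40) and *Cpa3* at 9.66 in library 4 (0 to 2.18). *Mcpt4* was lowest in null library 2, at 1.01 (others 6.05 to 7.20), and *Csf2* was at 1.09 in null library 5, which is 1 read pair against 0 in the others.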

How the results depend on the processing

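The count of macrophage genes passing the thresholds was 0 in the main fit and under every alternative run, as was that of the genes of the context lists, also at an FDR of 5% or 10% and with no threshold on the fold change. Over 169 alternative values of the 10 fold changes the smallest adjusted p was 0.819 and the largest size 0.32, and 3 had an unadjusted limma p under 0.05: *C1qb* (-0.30) and *C1qc* (-0.32) without wild-type library 5, and *C1qc* (-0.31) without null library 2. The count of genes with an unadjusted p under 0.05 thus ranged from 0 to 2. The sign changed in 10 of the 169, all with a library left out, for *C1qa* (range -0.058 to 0.13), *Mrc1* (-0.0037 to 0.15), *Cx3cr1* (-0.081 to 0.027) and *Lyve1* (-0.12 to 0.13). The ratio of summed levels stayed within 1 SD (0.092) of its main value of 0.960 in all alternatives. That SD comes from the spread between libraries, so leaving out 1 library could not have taken the ratio beyond it. Ranks of levels per kilobase moved for 5 genes with the longest transcript and for 9 with no division by length, as the construction of these alternatives implies. Without the 2 libraries farthest from the median, the relation to the other genes turned to r = -0.74 for *Adgre1*, -0.011 for *Cd68* and -0.55 for *Mrc1*. Without wild-type library 3, an alternative chosen after seeing the data, it turned to -0.29 for *Adgre1* and -0.41 for *Mrc1*, and the cause was not tested. With a mean of at least 50, *Cd68* was not tested. No paired analysis was possible because the group means carry no replicate numbers, so recovered libraries could not be tied to those of the labels. Depth limits the genes with few counts: *Cd68*, at 37 to 64 read pairs, has a counting error near 14% of its mean in a library.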

Other observations

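Several genes of the lists had means of 1000 or more, for which single libraries were not recovered, and only their deposited means can be given, with no error. *Stab1*, a scavenger receptor of macrophages and endothelium, was at 2096 in wild-type and 2066 in null hearts. *Axl*, a receptor for dying cells that also occurs on mesenchymal cells, was at 1546 and 1593, and *Lgmn*, a lysosomal protease, at 1155 and 1239. *Prox1*, which specifies lymphatic endothelium and is also made by heart muscle, was at 1016 and 1061. *Cd93*, a receptor of endothelium and myeloid cells, was at 2812 and 2948.

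Values of some genes used to tell macrophage subsets apart were as follows, wild type first. *Timd4*, which marks long-lived resident macrophages, had 4.83 and 3.18 normalized counts (0 to 8 read pairs, exact permutation p = 0.373). *Folr2*, a folate receptor of resident macrophages, had 9.51 and 6.51 (4 to 15 read pairs, exact permutation p = 0.206). *Cd163*, the haemoglobin scavenger receptor, had 1.5 and 0.416 (0 to 4 read pairs, exact permutation p = 0.198). *Ccr2*, the chemokine receptor of recruited monocytes, had 5.13 and 2.70 (1 to 6 read pairs, exact permutation p = 0.0714). *H2-Ab1*, a class II antigen-presenting molecule, had 46.4 and 44.8 (exact permutation p = 0.730). Other genes of the same longer list had higher means in null hearts, among them *P2ry12* (17.7 and 21.6), *Cd74* (7.55 and 8.02) and *Cd86* (9.38 and 9.50). These genes were chosen after their values were seen.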
